A study of Mus musculus with 6 samples.

Results

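The microtubule core of the sperm tail, the axoneme, and the machinery that builds it were examined on whole-genome arrays of mouse testis with and without Prss55, a serine protease gene expressed in the testis. Members were chosen by array gene name: every non-control probe whose GeneName begins with Dnah, Dnaic, Dnal, Dnaaf, Tekt, Rsph, Ift or Bbs followed by a number, or by i and a number, with the interferon-induced Ifit genes left out. This gave 64 probes of 37 genes among the 41174 non-control probes. No probe carried a Dnah name, because this array still uses the older Dnahc names for the axonemal dynein heavy chains. The name rule therefore took in the dynein intermediate chains (2 probes, 2 genes), the light intermediate chain Dnali1 (1 probe), the dynein assembly factors (4 probes, 2 genes), the tektins (6 probes, 5 genes), the radial spoke genes (10 probes, 6 genes), the intraflagellar transport complexes IFT-A (6 probes, 3 genes) and IFT-B (22 probes, 10 genes), and the Bardet-Biedl (BBS) genes (13 probes, 8 genes). The heavy chains are described further on from a separate list.

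Total testis RNA of 3 Prss55-/- and 3 wt male mice, all 6 to 8 weeks old and of a mixed background of 129Sv and C57BL/6, was hybridized with the dye Cy3, 1 mouse to an array. Prss55 was disrupted in every cell of the Prss55-/- animals by homologous recombination in embryonic stem cells, and no treatment is named for either genotype. Which 129Sv or C57BL/6 alleles each mouse carried, near Prss55 or elsewhere, is not given. Whole testis holds germ cells at every stage beside Sertoli, Leydig and other somatic cells, so that fewer cells of a type and less RNA per cell cannot be told apart in any value below. Signals are log2 of the scanner's background-corrected intensity, quantile-normalized over the 6 arrays, and a difference is Prss55-/- minus wt on that scale.

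Axonemal dyneins are the motors that slide the outer microtubule doublets against each other. Their intermediate and light chains join the heavy-chain motors into complexes that are put together in the cytoplasm by dedicated assembly factors, radial spokes carry signals from the central pair to the dyneins, and tektins run as filaments inside the doublets. Intraflagellar transport carries building material along a growing cilium or sperm tail, with IFT-B trains on the way out and IFT-A on the way back, and the BBS proteins form a coat complex that moves membrane proteins in and out of cilia. In the testis these genes serve mainly the spermatids, which build the tail.

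Arrays were similar in quality. Between 69.5% and 72.9% of spots lay well above background, no spot was saturated, and the lowest correlation of an array with another of its genotype was between 0.9935 and 0.9957. The 3 Prss55-/- arrays came from 1 slide and the wt arrays from the other 2 of the 3 slides, so slide and genotype cannot be told apart. The Prss55 probe read 15.08, 14.95 and 14.93 in Prss55-/- testis and 15.87, 15.77 and 16.01 in wt testis, a difference of -0.90 (limma adjusted p = 0.010). Signal thus remained at this probe in Prss55-/- testis, and whether the probe lies in the deleted part of the gene was not examined. The study itself reported that RT-PCR found no Prss55 RNA in knockout testis, and western blot and immunofluorescence no protein. Round spermatid markers read somewhat higher in Prss55-/- testis (6 of 8 tested probes at an unadjusted p below 0.05, summed signal 228852 to 248689 against 211313 to 222398). Elongating spermatid markers gave 0 of 10 probes higher and 1 lower by the same measure. Among all tested probes, 9.82% were higher and 9.29% lower by it. Leydig cell markers had a median difference of -0.58, with 3 of 9 probes lower in Prss55-/- testis at an unadjusted p below 0.05. Their summed signals overlapped (37512 to 61732 against 59029 to 68958), and Hsd3b6 went the other way (0.37). The brighter Star probe read 12.68 on Prss55-/- replicate 1, above the wt arrays (11.42 to 12.34), and 10.49 and 10.46 on replicates 2 and 3. Of the 8 epididymal markers, Adam7, Crisp1, Lcn5, Lcn8 and Rnase9 were not well above background, whereas Spink8 (8.19 to 8.77), Defb20 (5.95 to 6.33) and 1 of 2 Lcn9 probes (5.50 to 6.70) were on all 6 arrays, with none of them at an unadjusted p below 0.05 between genotypes. Prss55-/- replicate 1 stood apart from the 5 other arrays over a stretch of chromosome 17 that carries several of the members, and the affected values are given with and without it.

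A promoter feature that the name rule did not use was looked for first. RefSeq promoters of build GRCm38.p6, each from 250 bases before to 50 after a transcription start, could be matched by symbol to 30 of the 37 genes; Dnaaf1, Ift122, Ift80, Ift81, Rsph1, Rsph10b2 and Rsph4a were the others. They were searched on both strands for the X-box, the inverted pair of short arms to which the RFX factors of ciliary genes bind, allowing a spacer of 0 to 3 bases between the arms. A match stood in 6 of the 30 genes (20.0%), and in 474 of all 27025 genes with such promoters (1.75%). The matches are shown because a minority of members, from different parts of the axoneme and the transport machinery, share this sequence. The searched promoters of Dnali1, 3 radial spoke genes and 2 IFT-A genes held no match. Each is read 5′ to 3′ in the direction of the motif, with the match in capitals:
Dnaic1: gacgcgGTTACCCAGCAACcgacag
Dnaic2: ttaccaGTTGCCTAGCAACcctggc
Dnaaf2: tgctttGTTGCCATAGTAACgcctgg
Tekt2: gctctgGTTGCCGAGCAACcgcccc
Ift57, first match: cctgcgGTTGCCTGGTAACggtggg
Ift57, second match: cagccgGTCACCACGGCAACcagacc
Bbs1: ccaggcGTCGCCTTGGCAACcagctc
The capitals lie at chr4:41569775-41569787 (minus strand) for Dnaic1, chr11:114727386-114727398 (minus) for Dnaic2, chr12:69198433-69198446 (plus) for Dnaaf2 and chr4:126325705-126325717 (plus) for Tekt2. Those of Ift57 lie at chr16:49699234-49699246 (plus) and chr16:49699207-49699220 (minus), and that of Bbs1 at chr19:4906613-4906626 (plus). A match describes the letters only, and no measurement of RFX binding was analysed here. Among the members with a match, Dnaic2 was not well above background on any array, and Dnaic1, Dnaaf2, Tekt2 and Bbs1 differed between genotypes by -0.05, 0.01, 0.05 and -0.02 on the brightest probe of each gene. The Ift57 value was 0.15 and is described below.

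Most members gave a strong signal in adult testis. Of the 64 probes, 61 probes of 35 genes were tested, and all 61 lay well above background on all 6 arrays. Ranked by mean signal among the 28606 tested probes, with the brightest probe standing for a gene, 20 of the 35 genes lay above percentile 90, 28 above percentile 75 and 3 below percentile 50, and the median percentile was 91.7. The rank is a description of the signal, since brightness also depends on the probe, and it does not order transcript amounts between genes.

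Medians by role were 98.7 for the 5 tektins, 98.0 for Dnali1, 97.4 for the 3 IFT-A genes, 92.9 for the 2 assembly factors, 92.7 for Dnaic1, 92.3 for the 5 tested radial spoke genes, 91.2 for the 10 IFT-B genes and 67.9 for the 8 BBS genes. The BBS genes had the lowest median of the 8 roles. It stayed between 67.1 and 68.7 on the 6 single arrays, and the tektin median between 98.5 and 98.9. The brightest member was Rsph3a, a spoke protein, at percentile 99.9, followed within the tektins by Tekt1 at 99.4. Ift172, the largest IFT-B protein, stood at 99.3, and Dnaaf1, an assembly factor, at 99.3. Bbs5, a subunit of the BBS coat, was the highest BBS gene at 93.9, and Bbs12, a chaperonin-like factor in its assembly, the lowest at 35.8. Within other roles the lowest were Tekt3 at 61.8, Rsph10b2 at 58.6, Ift88 at 81.2 and Ift140 at 95.4.

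**Figure D1:**
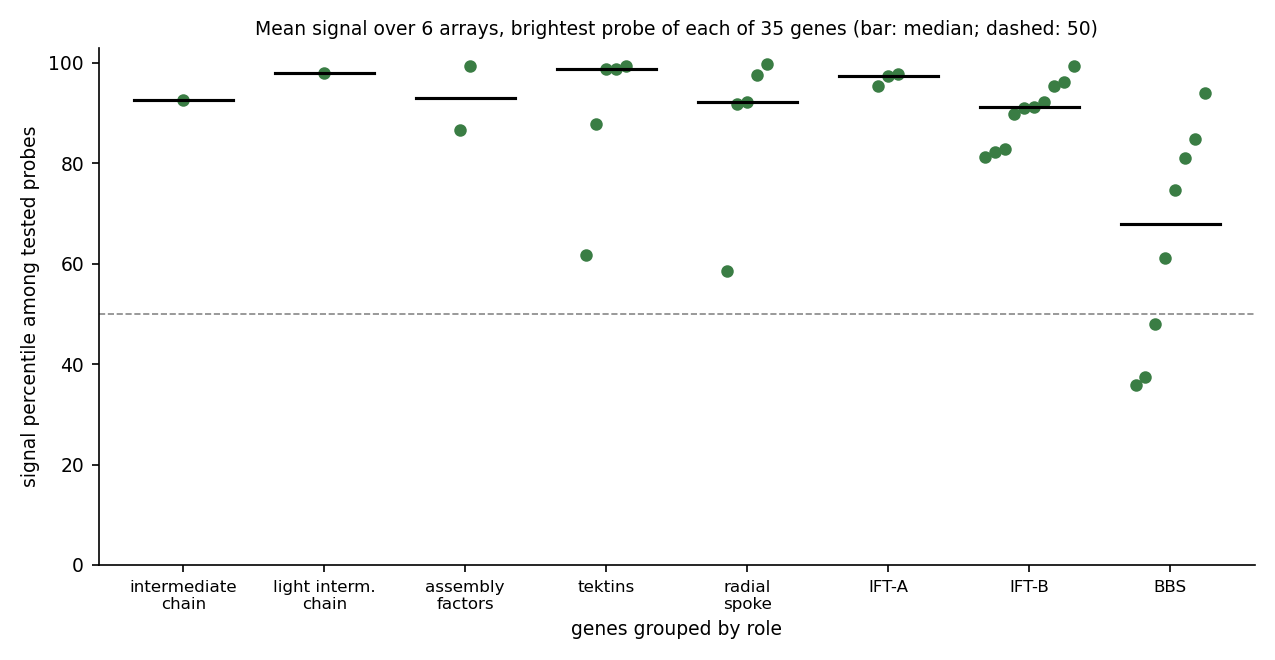
Signal percentile among 28606 tested probes (vertical axis, 0 to 100) of the brightest probe of each of the 35 tested genes, by role, with each point a gene and the bar the median of the role. Every role except the BBS genes has a median above 91, and the BBS genes spread from 35.8 to 93.9 around a median of 67.9.

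The comparison of Prss55-/- with wt testis asked whether this set of tail and cilium genes differed when Prss55 was absent. Differences were small throughout. At a limma adjusted p below 0.05, 0 of 61 member probes were called (346 of 28606 tested probes, 1.21%), and 9 of 61 (14.8%) had an unadjusted p below 0.05, against 19.1% of all tested probes. Of these 9, 6 were higher in Prss55-/- testis (9.84% of the member probes, 9.82% of all tested probes) and 3 lower (4.92%, against 9.29%). The median difference over the members was 0.0086, beside 0.0019 over all tested probes, with 31 probes above 0 and 30 below. The range ran from -0.33 (a dim Bbs9 probe) to 0.39 (a dim Ift80 probe).

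The precision of the arrays bounds these differences. The 95% interval lay inside a 2-fold change in either direction for 61 of 61 member probes (95.6% of all tested probes), and inside a 1.5-fold change for 58 (95.1%, against 85.1%). None reached an unadjusted p below 0.05 together with a 2-fold difference, which 0.608% of all tested probes did. The Student's test of the study's methods, run on the same values, gave 11 member probes (18.0%) before adjustment, against 17.2% of all tested probes, and 1 of 61 after Benjamini-Hochberg adjustment (1.64%, against 0.304%). The 3 arrays of one genotype lay entirely above or below those of the other for 24 member probes (39.3%, against 26.3% of all tested probes), 12 in each direction (19.7% each, against 13.4% higher and 12.9% lower). With 3 mice against 3, an exact permutation test of a single probe cannot give a two-sided p below 0.1.

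**Figure D2:**
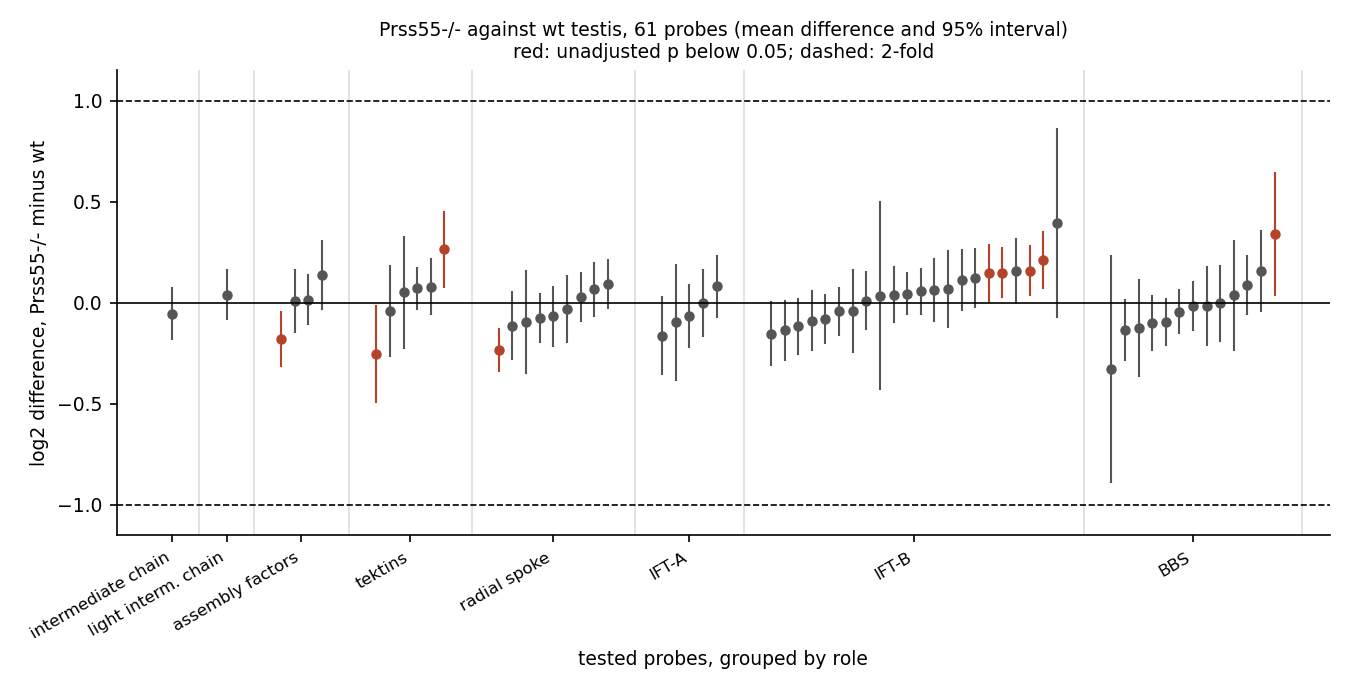
Log2 difference between Prss55-/- and wt testis (vertical axis) of each of the 61 tested probes, grouped by role, with its 95% interval as a line and unadjusted p below 0.05 in red; dashed lines mark a 2-fold change. All intervals stay inside the dashed lines, and the 9 red probes lie on both sides of 0.

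Dynein subunits and their assembly factors gave no call at the adjusted threshold. Dnaic1, an intermediate chain of the outer dynein arm, read 14.13, 14.17 and 14.26 in Prss55-/- testis and 14.27, 14.23 and 14.22 in wt testis, a difference of -0.05 (95% interval -0.18 to 0.07). The genotypes overlapped. Dnali1, the light intermediate chain of inner arms, read 15.97, 15.98 and 15.98 against 15.86, 15.96 and 15.98, a difference of 0.04 (-0.08 to 0.16), and the genotypes overlapped here too. Its 3 Prss55-/- arrays lay close together, and wt replicate 1 was the lowest of the 6.

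Dnaaf1 has 2 probes that did not read alike. Its brightest probe read 16.84, 16.79 and 16.78 in Prss55-/- testis and 16.83, 16.81 and 16.73 in wt testis, which overlap. The dimmer probe read 11.01, 11.09 and 11.01 against 11.25, 11.14 and 11.26, so that every Prss55-/- array was below every wt array, with a difference of -0.18 (unadjusted p = 0.018, adjusted p = 0.17). Dnaaf2, which acts in the same cytoplasmic assembly, differed by 0.01 on its brightest probe and by 0.14 on the other (unadjusted p = 0.091).

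Among the tektins, Tekt4 and Tekt5 had the lowest p values and moved in opposite directions. Tekt4 read 16.66, 16.42 and 16.45 in Prss55-/- testis and 16.20, 16.27 and 16.26 in wt testis, without overlap. The difference of 0.27 corresponds to 1.20-fold (unadjusted p = 0.013, adjusted p = 0.15), and without Prss55-/- replicate 1, the highest of the 6 arrays, it was 0.19 (unadjusted p = 0.017, adjusted p = 0.16). Tekt5 read 13.29, 13.13 and 13.07 against 13.47, 13.25 and 13.54, a difference of -0.26 (unadjusted p = 0.039, adjusted p = 0.24). Here Prss55-/- replicate 1 lay above wt replicate 2, so the genotypes overlapped. Tekt1 was higher on all 3 Prss55-/- arrays by its brightest probe (16.89, 16.90 and 16.87 against 16.82, 16.80 and 16.83, a difference of 0.07 with an unadjusted p of 0.13), whereas Tekt2 and Tekt3 differed by 0.05 and -0.04 with overlapping arrays.

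Of the radial spoke genes, Rsph3a gave the lowest p of all members. Its 3 probes share the chromosome 17 locus, and their listed accessions name the near-identical copy Rsph3b as well, so the signal of the 2 genes may be joined. The probe with the lowest p and the one that crosses an exon junction are shown, because they give the size of the difference at separate places of the transcript; capitals mark the longest run of codons without a stop:
Rsph3a, chr17:8169012-8169071: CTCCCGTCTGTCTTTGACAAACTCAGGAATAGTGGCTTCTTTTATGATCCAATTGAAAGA
Rsph3a, chr17:8139154-8145458: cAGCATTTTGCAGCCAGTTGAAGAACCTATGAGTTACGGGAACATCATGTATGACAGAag
Both are on the plus strand of mm9, and the second spans 6305 bases of the genome with its 60 bases. The first read 16.11, 16.10 and 16.09 in Prss55-/- testis and 16.36, 16.33 and 16.31 in wt testis, so the genotypes were well separated. The difference of -0.23 (95% interval -0.34 to -0.13) corresponds to 1.18-fold lower (unadjusted p = 0.0014, adjusted p = 0.066). The second read 13.77, 13.76 and 13.75 against 13.88, 13.84 and 13.77, a difference of -0.07 (unadjusted p = 0.18). The brightest Rsph3a probe differed by -0.03 (95% interval -0.19 to 0.13) with overlapping arrays, so the size of the difference depended on the probe.

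The other spoke genes stayed within 0.12 of 0. Rsph6a, a spoke-head protein of sperm, read 13.83, 13.99 and 14.02 against 14.13, 14.02 and 14.03 on its brightest probe (difference -0.11, unadjusted p = 0.14). Rsph10b2, whose probes match more than 1 gene copy, differed by 0.07 on its brightest probe, and Rsph9 by 0.03. Rsph4a, a spoke-head protein of motile cilia, was well above background on Prss55-/- replicate 3 and wt replicate 2 only and was not tested.

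By share of probes at an unadjusted p below 0.05, the tektins (2 of 6, 33.3%) and the assembly factors (1 of 4, 25.0%) stood above IFT-B. IFT-B, the role with most tested probes, had 4 of 22 (18.2%), against 19.1% of all tested probes. All 4 were higher in Prss55-/- testis, where 9.82% of all tested probes were higher by this measure. All of these counts are too small to describe a role, and the 2 tektin probes went in opposite directions. The IFT-B median difference was 0.05, with 15 probes above 0 and 7 below. Ift57, an IFT-B subunit with 3 probes, was higher in Prss55-/- testis at each of them without overlap. The brightest read 13.74, 13.65 and 13.69 against 13.59, 13.54 and 13.50, a difference of 0.15 (unadjusted p = 0.025, adjusted p = 0.20), and the others differed by 0.12 and 0.11.

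Ift81, which with Ift74 binds the tubulin cargo, read 13.98, 13.88 and 13.94 in Prss55-/- testis and 13.73, 13.81 and 13.78 in wt testis, without overlap. The difference was 0.16 (unadjusted p = 0.018, adjusted p = 0.17), and its other probes differed by 0.05 and 0.07. Ift74 itself differed by 0.16 (unadjusted p = 0.051), with wt replicate 2 just above Prss55-/- replicate 2. Ift88, needed for tail formation, read 12.49, 12.39 and 12.51 against 12.35, 12.35 and 12.25, a difference of 0.15 without overlap (unadjusted p = 0.043, adjusted p = 0.25). Its probe lies on chromosome 14, 6.56 Mb from that of the targeted gene Prss55. Whether alleles inherited together with the disrupted gene play a part in this value was not tested.

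Probes of the same gene did not always share a direction. Ift80 read higher in Prss55-/- testis on a probe of low signal (7.84, 7.94 and 7.94 against 7.63, 7.76 and 7.69; difference 0.21, unadjusted p = 0.0092) and by 0.39 on its dimmest probe, but its brightest probe differed by -0.09. That range of 0.48 was the widest among the 19 genes with several tested probes, of which 13 kept 1 sign and 6 did not. Ift172, bright on its first probe with 16.86, 16.76 and 16.79 against 16.87, 16.91 and 16.87, was lower in Prss55-/- testis on all 4 probes, by -0.04 to -0.14, none at an unadjusted p below 0.05. Ift52 differed by -0.15 on its brightest probe (unadjusted p = 0.053), and Ift20, Ift27 and Ift46 by no more than 0.06 on each of their probes.

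The summed signals of the round spermatid markers were higher in Prss55-/- testis than in wt testis, as given above. The 4 tested probes of the multiciliated epithelium list, among them Foxj1, were also higher (3 at an unadjusted p below 0.05, against 9.82% of all tested probes). Of the 8 genes of that list, 5 were on the array, and Cdhr3 was not well above background on any array. Whether the signal of the other genes came from such epithelium was not tested. The Leydig cell markers ran the other way in the median, with overlapping summed signals. The part of any of these in the IFT-B values was not tested.

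IFT-A gave no probe at an unadjusted p below 0.05 (0 of 5, against 19.1% of all tested probes). Ift43 read 15.86, 15.86 and 15.89 in Prss55-/- testis and 15.74, 15.90 and 15.72 in wt testis, a difference of 0.08 (unadjusted p = 0.24), and Ift122 differed by -0.06 (unadjusted p = 0.34). In both, the genotypes overlapped. The 3 tested probes of Ift140 differed by -0.10, -0.16 and -0.002, and the unadjusted p of the middle value was 0.083.

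In the BBS group 1 of 13 probes (7.69%) had an unadjusted p below 0.05, against 19.1% of all tested probes. Bbs12 read 8.74, 8.43 and 8.44 in Prss55-/- testis and 8.04, 8.39 and 8.16 in wt testis, a difference of 0.34 or 1.27-fold (unadjusted p = 0.033, adjusted p = 0.22). The genotypes were apart by a narrow margin, with wt replicate 2 close to the lower Prss55-/- arrays. Bbs9 was lower on its brightest probe (12.78, 12.84 and 12.78 against 12.93, 12.90 and 12.86), a difference of -0.10 (unadjusted p = 0.082), and Bbs5 differed by -0.02 with overlap. Bbs10 was lower on both its probes, by -0.10 and -0.13 (unadjusted p = 0.12 and 0.071). Over all 13 probes, 4 lay above 0 and 9 below, with a median of -0.02.

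**Figure D3:**
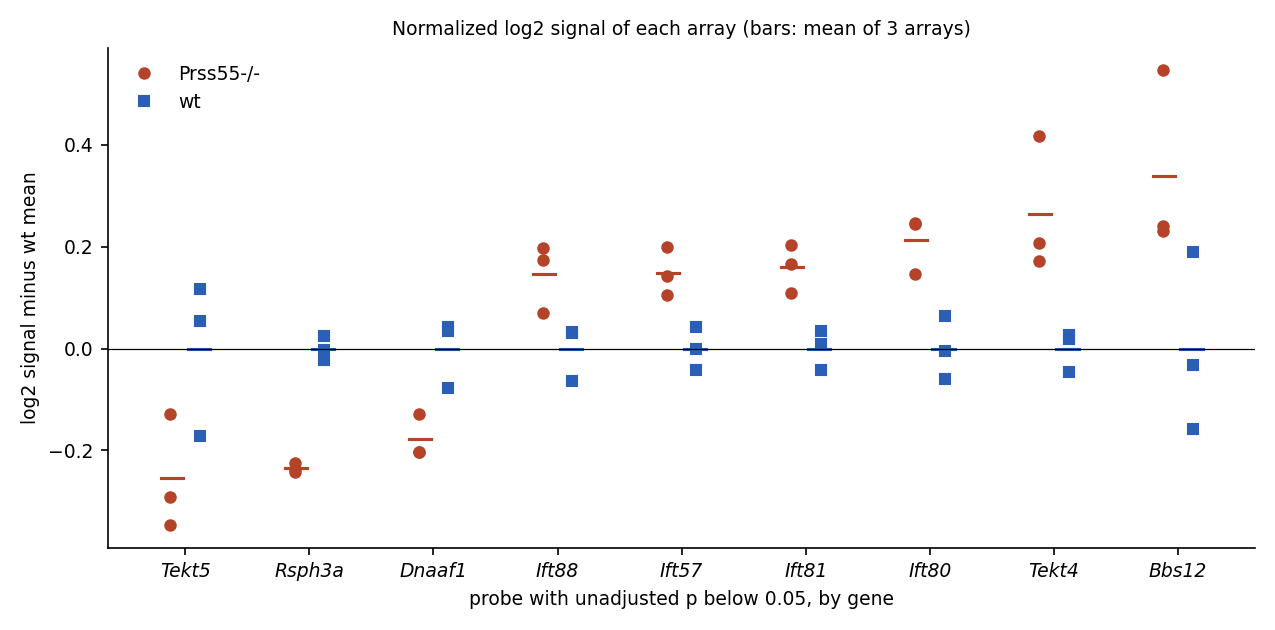
Normalized log2 signal of each array minus the wt mean (vertical axis) for the 9 probes with an unadjusted p below 0.05, with Prss55-/- arrays as circles, wt arrays as squares and bars at the mean of 3 arrays. Only for Tekt5 do the genotypes overlap, and the means lie between -0.26 and 0.34 from wt.

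Beside the tested members, 1 probe of Ift140 led to a stretch of chromosome 17 on which a single array stood apart. This probe, which the array files tie to a transcript model other than the RefSeq one, was well above background only on Prss55-/- replicate 1, so it was not tested. It is shown with 2 probes of the RefSeq transcript that did not behave this way, with capitals as above:
Ift140, chr17:25233457-25233516: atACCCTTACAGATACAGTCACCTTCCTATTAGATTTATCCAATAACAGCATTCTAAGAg
Ift140, chr17:25172684-25172743: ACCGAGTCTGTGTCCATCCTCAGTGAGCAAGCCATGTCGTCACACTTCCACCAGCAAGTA
Ift140, chr17:25182557-25185393: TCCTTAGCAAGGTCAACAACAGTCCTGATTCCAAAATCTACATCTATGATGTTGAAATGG
All are on the plus strand of mm9, and the last spans 2837 bases of the genome. The first read 9.39 on Prss55-/- replicate 1 and 4.96, 4.80, 5.10, 5.04 and 5.18 on Prss55-/- replicates 2 and 3 and wt replicates 1, 2 and 3. On the second, the array that stood out read 10.06 against 9.88 to 10.02 on the others, and on the third 9.41 against 9.62 to 9.75.

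The neighbours of Ift140 showed that more than 1 probe was involved. Of 124 probes of other genes within 1 Mb of it, 18.5% had a signal on Prss55-/- replicate 1 more than 0.5 log2 units outside the range of the 5 other arrays, compared with 1.89% of all 31012 positioned probes. On the 5 other arrays the share there was 0.806% to 1.61%. Within 10 Mb, 70 of 579 probes (12.1%, of 61 genes) stood apart on that array, 40 of them higher and 30 lower, against 2 to 8 probes on each other array. The same was seen around the member Rsph1 (22.0% of 41 probes), but not around Rsph3a (0 of 14) or Rsph9 (1.23% of 81), which lie elsewhere on the chromosome. The share around Tekt4 was 15.8% of 114 probes, but Tekt4 lies within 1 Mb of Ift140, so many of these probes are the same. What sets this mouse apart was not tested.

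**Figure D4:**
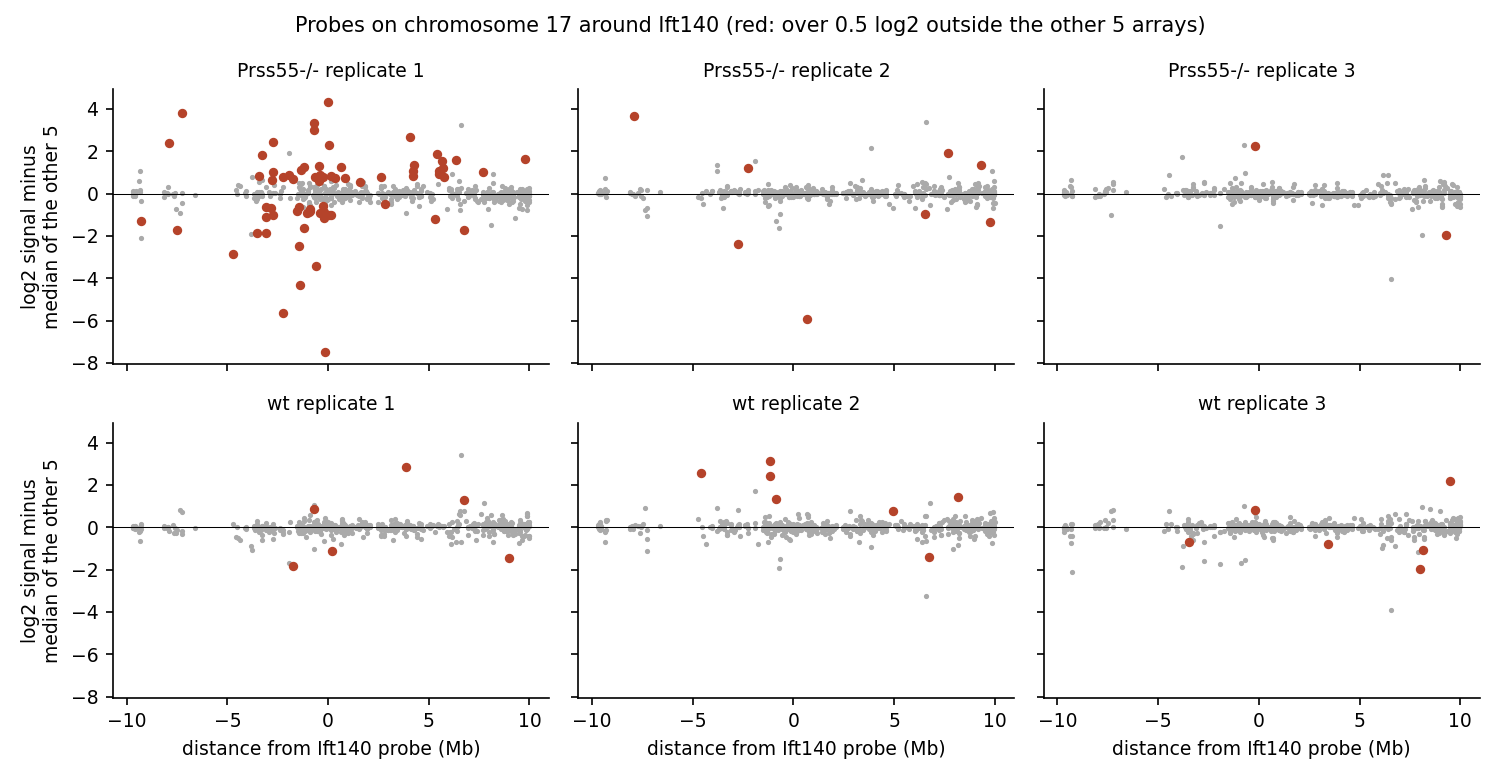
Log2 signal of each array minus the median of the 5 other arrays (vertical axis) against distance in Mb from the Ift140 probe on chromosome 17 (horizontal axis), 1 panel per array and 579 probes in each, with probes more than 0.5 log2 units outside the other arrays in red. Prss55-/- replicate 1 has 70 red probes, most between about 4 Mb before and 7 Mb after the Ift140 probe, and every other array has 8 or fewer.

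The heavy chain Dnahc8, a motor of the outer arm in sperm, lies in this stretch and was chosen for display after its values were seen. In order of position, its 3 probes read 10.05, 8.73 and 17.73 on Prss55-/- replicate 1. On the 5 other arrays they read 8.33 to 8.58, 7.18 to 7.57 and 16.90 to 17.10. The differences between genotypes of 0.40, 0.33 and 0.15 (adjusted p = 0.68, 0.68 and 0.76) turned to -0.17, -0.13 and -0.13 without that array (adjusted p = 0.21, 0.64 and 0.34). Rsph1, a spoke-head protein, differed by -0.09 with all arrays and by -0.04 without Prss55-/- replicate 1, and the Ift140 values became -0.02, -0.08 and -0.05 in place of -0.10, -0.16 and -0.002. None of these passed the adjusted threshold in either form.

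**Figure D5:**
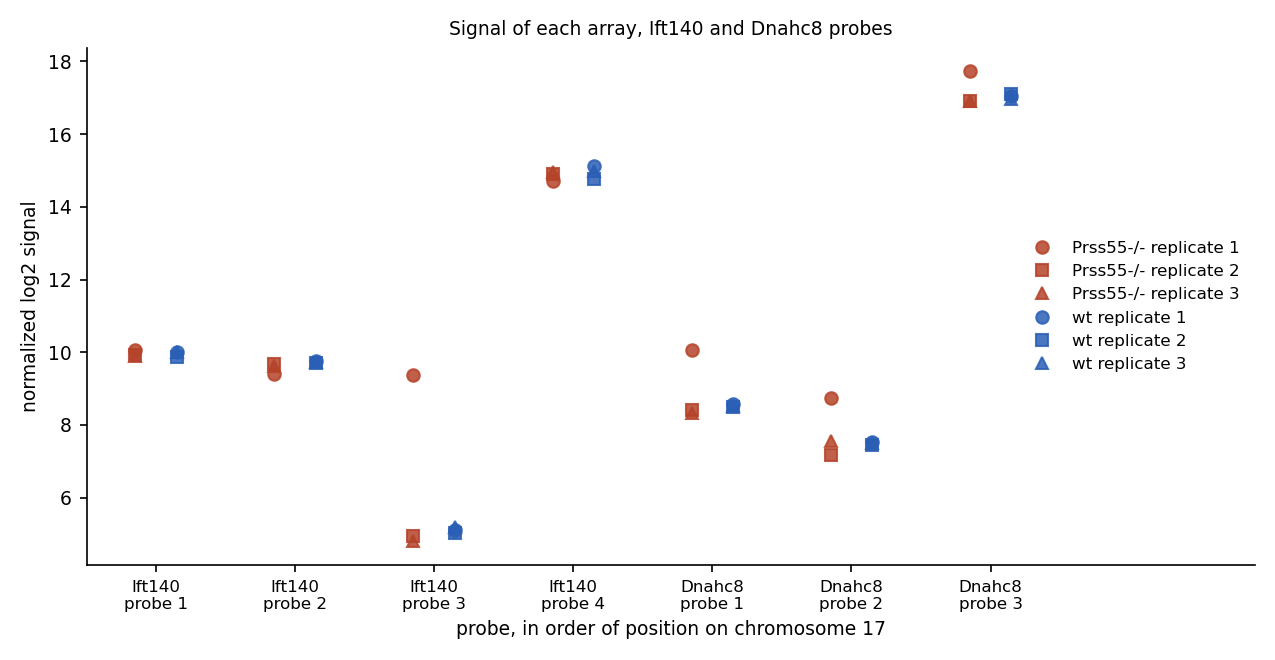
Normalized log2 signal (vertical axis) of the 4 Ift140 probes and the 3 Dnahc8 probes in order of position on chromosome 17, with 1 symbol per array. Prss55-/- replicate 1 (red circle) lies far above the other arrays at Ift140 probe 3, at 9.39, and above them at all 3 Dnahc8 probes, and close to them at the other Ift140 probes.

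The axonemal dynein heavy chains as a whole, 14 genes under Dnahc names with 34 tested probes, gave 0 calls at an adjusted p below 0.05. At an unadjusted p below 0.05, 1 of the 34 probes was higher (Dnahc3) and 1 lower (Dnahc6), and the median difference was -0.02. Among all tested probes, 9.82% were higher and 9.29% lower by this measure. Dnahc6, an inner-arm heavy chain, read 12.28, 12.23 and 12.20 in Prss55-/- testis and 12.37, 12.42 and 12.42 in wt testis, without overlap (difference -0.17, unadjusted p = 0.011, adjusted p = 0.14). The Dnahc3 probe was dim, and its arrays overlapped.

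Other parts of the tail and of ciliary transport that the name rule left out were taken from 9 lists, which together hold 118 genes, 100 of them on the array and 99 tested with 182 probes. None of the 182 probes passed the adjusted threshold, 20 were higher and 8 lower at an unadjusted p below 0.05 (9.82% and 9.29% of all tested probes), and the median difference was 0.02. The nexin-dynein regulatory complex, which links neighbouring doublets, had 4 of 14 probes higher, which belong to 2 genes (Ccdc65 and Iqca), and 1 lower. The motors of intraflagellar transport had 3 of 25 higher and 2 lower, and the list of central pair and spoke genes 2 of 17 higher.

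Tcte3, a dynein light chain, came closest to the threshold among these lists. One of its 2 probes read 17.17, 17.04 and 16.97 in Prss55-/- testis and 16.65, 16.57 and 16.68 in wt testis, a difference of 0.43 or 1.34-fold (adjusted p = 0.053), and the other differed by 0.36 (adjusted p = 0.10). At both probes, all Prss55-/- arrays were above all wt arrays. The first probe lies on chromosome 17, and without Prss55-/- replicate 1 it differed by 0.37 (limma adjusted p = 0.051). Spef2, a central pair protein needed for tail formation, read 10.79, 10.88 and 10.98 against 10.50, 10.52 and 10.51 on the brighter of its 2 probes (difference 0.37, adjusted p = 0.054), and its dim probe overlapped. Foxj1, the transcription factor of motile ciliogenesis, read 12.85, 12.64 and 12.61 against 12.29, 12.54 and 12.30 (difference 0.32, unadjusted p = 0.015, adjusted p = 0.16). Rfx2, an RFX factor of spermatids, was lower without overlap on the brighter of its 2 probes (12.32, 12.34 and 12.31 against 12.46, 12.48 and 12.39; difference -0.12, unadjusted p = 0.040, adjusted p = 0.24), and its other probe differed by 0.03 with overlapping arrays (unadjusted p = 0.73).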

How the data were processed

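The authors deposited the scanner output of 6 single-colour Agilent arrays (Feature Extraction 10.7.3.1 and build mm9 per the file headers), whose processed intensity is background-corrected and not normalized between arrays, and a matrix of quantile-normalized log2 values. Outlier spots were set aside, signals under 1 were set to 1, log2 signals were quantile-normalized, spots of a probe were averaged, and probes that the scanner software called well above background throughout at least 1 genotype (3 of 3 arrays) were compared with limma 3.58.1 (R 4.3.3), with Benjamini-Hochberg adjustment over 28606 probes. In simulated data with 28606 probes, 200 of them changed, 132 of the 150 changed by 2-fold or more were found, with 11 false calls among 167. The simulated arrays had no slide effect, and this recovery does not bear on differences below 2-fold, such as those of all tested members. Members and lists were chosen with earlier results of these data known. Named were, per role, the 2 genes with the lowest unadjusted p and those of highest and lowest signal percentile (brightest probe), genes without a tested probe, and Prss55; the other genes were named after their values were seen. The number of arrays limits precision. Replicates came from separate mice. The methods' t-test and the other alternatives are in the closing section. Tables and plots used Python 3.11.15, pandas 2.3.3, numpy 2.4.6 and matplotlib 3.10.9.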

Additional observations from a re-analysis of the deposited data

How the results depend on the processing

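No member probe passed an adjusted p below 0.05 in limma under any alternative (75th percentile scaling, normexp background, no filter, all 6 arrays above background, the deposited matrix, slide as a random block, a replicate block, each array left out), and none reached 2-fold with an unadjusted p below 0.05. The methods' t-test gave 11 probes at an unadjusted p below 0.05 (17.2% of all tested probes) and, after Benjamini-Hochberg adjustment, 1 probe of 1 gene (Rsph3a, adjusted p = 0.046; 0.304%). The study speaks of pairs of wt and Prss55-/- mice, and the main fit did not use a pairing. Deviations from the genotype mean correlated at -0.054, -0.023 and -0.11 between arrays of the same replicate number. Between arrays of different numbers they reached -0.058 and 0.11, so these values cannot decide whether the numbers pair the mice. With the replicate block, 5 probes of 4 genes had an unadjusted p below 0.05, against 9 probes of 9 genes without it. The share of all tested probes fell as well, from 19.1% without the block to 15% with it. Leaving out single arrays gave 4 to 11 such probes (4 to 11 genes), 5 when Prss55-/- replicate 1 was left out and 4 when replicate 3 was, and a median member difference of -0.026 to 0.020, the lower end with wt replicate 2 left out, and -0.017 with Prss55-/- replicate 1 left out. The share of all tested probes was then 12.9% (without Prss55-/- replicate 3) to 22% (without wt replicate 3), and 19.1% without Prss55-/- replicate 1. The lists outside the name rule gave 1 adjusted call with normexp (Spef2), 2 with all 6 arrays above background (Spef2, Tcte3) and 0 to 4 with an array left out, the 4 being Ccdc65, Dnahc1, Dync2h1 and Spef2 without Prss55-/- replicate 1. Of all tested probes, 1.24% passed with normexp and 1.42% with all 6 arrays above background. Without Prss55-/- replicate 1, 862 of 28744 tested probes (3%) passed, so the 4 calls are not particular to these lists. Small differences on the brightest probe changed sign for Rsph3a with 75th percentile scaling (0.032), for Dnaaf2 (-0.019) and Tekt3 (0.013) with normexp and, with an array left out, for Bbs5 (-0.067 to 0.050), Dnaaf1 (-0.015 to 0.036), Dnaaf2 (-0.035 to 0.066), Rsph3a (-0.096 to 0.0073) and Tekt3 (-0.13 to 0.031). Signal percentiles rose when ranked among all non-control probes, to 94.9 (Dnaic1), 98.6 (Dnali1), 95.1 (assembly factors), 99.1 (tektins), 94.6 (radial spoke), 98.2 (IFT-A), 93.9 (IFT-B) and 77.7 (BBS), and with all tested probes of a gene were 83.1 (assembly factors), 97.7 (tektins), 95.4 (IFT-A), 83.4 (IFT-B) and 61.1 (BBS). The causes were not tested. Dim probes, such as those of Bbs9 and Ift80 near background, carry the widest intervals.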
